A study of Saccharomyces cerevisiae with 13 samples.

Results

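Saccharomyces cerevisiae strain TMB3400 was compared at 2 furfural levels in the feed, 25 mM and 15 mM, in 5 of the 13 arrays of the study. The 5 arrays are all those labelled as TMB3400, 3 at 25 mM and 2 at 15 mM. The comparison and the gene lists used below were chosen with earlier results of these data known. Furfural is a growth-inhibiting aldehyde that forms when plant biomass is broken down. RNA was taken from chemostats that were limited by glucose and run with little oxygen, and was read on 1-colour Affymetrix arrays.

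The groups used were TMB3400 at 25 mM (n = 3), TMB3400 at 15 mM (n = 2), the furfural-adapted strain TMB3400-FT30-3, called FT30-3 here, at 25 mM (n = 2) and FT30-3 at 15 mM (n = 3). FT30-3 at 36 mM (n = 3) entered the fit to help estimate the spread and no comparison. TMB3400 is the less furfural-resistant parent of FT30-3, and the labels report that it could not be kept in culture at 36 mM. Both strains received furfural in every culture, so no culture without furfural was compared. The design text calls the replicates biological but does not say whether each came from its own chemostat run, so the p-values measure the spread between these arrays. The comparison asks which RNAs of the less resistant strain differed when the furfural feed was higher and still tolerated.

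Yeast detoxifies furfural mainly by reducing it to furfuryl alcohol, with reductases and alcohol dehydrogenases that draw on NADPH or NADH. NADPH comes largely from the oxidative pentose phosphate pathway. In a glucose-limited chemostat the growth rate is set by the rate of feeding, and a culture that cannot grow that fast is diluted out. Iron uptake, glucose transport and drug efflux are among the other systems yeast adjusts by transcription when its surroundings change.

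Values are scaled intensities, that is, the deposited intensity after setting the median S. cerevisiae probe set of every array to a common value. Changes are log2 values, 25 mM minus 15 mM, ± standard error, with adjusted p from limma. A gene was called at an adjusted p under 0.05. The deposited medians lay between 1551.1 and 1594.2 on the 25 mM arrays, against 1420.1 and 1431.9 on the 15 mM arrays, and the median gene's change was 0.13 on the log2 scale before centring and -0.01 after it. Changes below are therefore relative to the median gene. Calls that ended when an array was left out are given with those arrays and the range of adjusted p, and where the call also ended in a fit of the 5 TMB3400 arrays alone, that adjusted p follows. Where a gene is followed by a pair of numbers in parentheses, they are its log2 change and its adjusted p. Each array averages RNA over all cells of a culture, so a change in every cell and a change in the share of cells with the RNA cannot be told apart. Across probe sets the arrays correlated at r = 0.985 to 0.990 among the 25 mM arrays and at 0.992 for the pair at 15 mM, against 0.975 to 0.988 between the doses. Array 1 of FT30-3 at 36 mM stood apart from its replicates (lowest r = 0.965), and without it 129 genes were called in TMB3400, all 87 named or counted below among them. The number of arrays limits the precision.

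Of 5449 genes, 87 were called between 25 and 15 mM in TMB3400 (1.6%), 43 higher (0.789%) and 44 lower (0.807%) at 25 mM. At an unadjusted p under 0.05 there were 515 genes. Without centring the arrays, 156 genes were called (2.86%), 120 higher (2.2%) and 36 lower (0.661%), and 79 of the 87 were among them. Changes over 2-fold were found for 20 of the higher and 22 of the lower genes. In all 87 genes every 25 mM array lay on one side of both 15 mM arrays, a separation that 14% of all genes showed upwards and 15.6% downwards. Probe sets for Schizosaccharomyces pombe, a yeast that the labels do not name in these cultures, gave a measure of how often readings without an intended target were called. Whether the brighter of them carried signal from S. cerevisiae RNA was not tested. In a fit of their own, 82 of 1746 were called (4.7%), 26 higher (1.49%) and 56 lower (3.21%), with a median change of -0.13. The 4.7% is above the share of S. cerevisiae genes called, and calls among dim genes should be read against it. Among the 43 S. pombe probe sets that a filter on dim genes left, 10 were called, which is a larger share. Arrays of the doses did not overlap in 11.8% of these probe sets upwards and in 19.9% downwards. The 95th percentile of these probe sets, used as the background, lay between 31.8 and 42.1 on the 5 TMB3400 arrays after scaling. Of the 82 called S. pombe probe sets, 33 were above it on at least 1 TMB3400 array. Of the 87 called genes, 77 had neither group at background, 4 were at background on all 25 mM arrays, 2 on both 15 mM arrays, and 4 in both groups. The last 4 are not named.

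**Figure D1:**
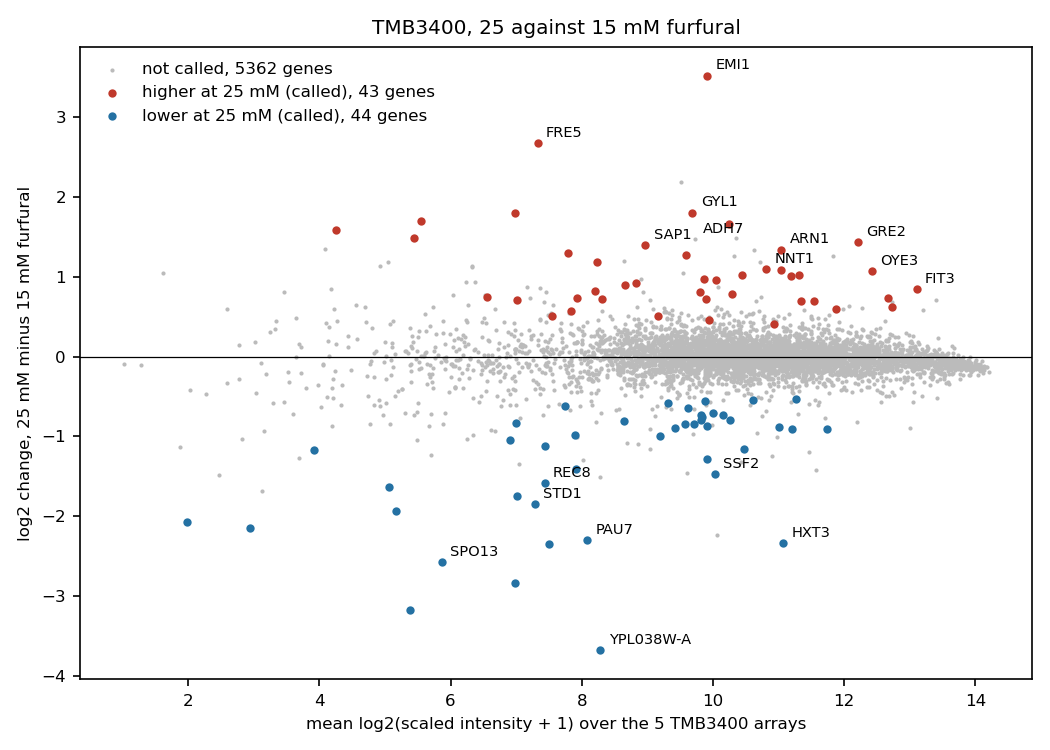
Each point is 1 gene, with its mean log2(scaled intensity + 1) over the 5 TMB3400 arrays on the horizontal axis and its log2 change, 25 mM minus 15 mM, on the vertical axis. The 43 higher and 44 lower called genes are spread along the horizontal axis, with EMI1 at 3.52 the highest and YPL038W-A at -3.68 the lowest.

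Among the aldehyde and ketone reductases, GRE2 and OYE3 rose, where 0.789% of all genes did. The other 19 of 21 members did not pass the test. GRE2 encodes an NADPH-dependent reductase that acts on methylglyoxal and other aldehydes. Its scaled intensity was 7405, 7468 and 6267 at 25 mM, against 2738 and 2480.4 at 15 mM. The 25 mM arrays all stood above both 15 mM arrays, a change of 1.43 ± 0.12, adjusted p = 6.48e-05. OYE3 encodes a flavin-containing NADPH oxidoreductase of the old yellow enzyme family, and it read 8049, 7462 and 6796 at 25 mM, against 3689.5 and 3364 at 15 mM (1.07 ± 0.12, adjusted p = 0.000773). The 25 mM arrays again lay above both 15 mM arrays, and both calls held in all 26 alternative settings. OYE2, the close relative of OYE3, had 0.23 ± 0.15, adjusted p = 0.719, and was not called. The 21 reductases had a median change of 0.21, with 15 above 0, against -0.01 over all genes, and 0.35 against 0.13 without centring. YML131W, which encodes a protein related to NADPH-dependent alkenal and ketone reductases and lies outside that list, also rose, by 0.73 ± 0.16, adjusted p = 0.0466. Without 1 array the test no longer passed in the case of YML131W (25 mM arrays 1, 2 and 3, 15 mM arrays 1 and 2, FT30-3 36 mM arrays 2 and 3, FT30-3 25 mM arrays 1 and 2 and FT30-3 15 mM array 2, adjusted p = 0.0549 to 0.347, or 0.116 from the 5 arrays alone).

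ADH7, an NADPH-dependent alcohol dehydrogenase, did not pass the test. It read 3596, 568 and 994 at 25 mM, against 508 and 408 at 15 mM (1.47 ± 0.58, adjusted p = 0.434). Array 1 at 25 mM stood far above the other 4 arrays, and the other two at 25 mM also lay above both 15 mM arrays. Without array 1 at 25 mM the log2 change was 0.72, with adjusted p = 0.509. ADH6, the close relative of ADH7, had a change of -0.05 ± 0.10, adjusted p = 0.984, and ARI1, an NADPH-dependent aldehyde reductase, one of 0.37 ± 0.32, adjusted p = 0.854. GRE3, an NADPH aldose reductase, gave 0.13 ± 0.14, adjusted p = 0.922, and SFA1, which acts on formaldehyde bound to glutathione, gave 0.23 ± 0.11, adjusted p = 0.566. None of the 6 aldehyde dehydrogenases was called, ALD6, which makes acetate and NADPH, included (-0.15 ± 0.08, adjusted p = 0.627). None of the 14 pentose phosphate pathway genes was called, and their median was 0.02. With 1.6% of all genes called, a count of 0 in lists this short is near the background. ZWF1, which catalyses the first NADPH-forming step, had 0.07 ± 0.12, adjusted p = 0.969, and GND1, which catalyses the next one, -0.01 ± 0.08, adjusted p = 0.992. TKL1 (-0.05, adjusted p = 0.962), TAL1 (-0.11, adjusted p = 0.769) and XKS1, the xylulokinase (-0.12, adjusted p = 0.873), of the non-oxidative branch and xylose use, were not called either. Likewise, 0 of 10 genes of other NADPH sources and 0 of 5 AAD aryl-alcohol dehydrogenases were called. A p above the threshold does not show that these genes were equal at the 2 doses.

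Of 7 genes of siderophore uptake, 3 rose, where 0.789% of all genes did. Siderophores are iron-binding molecules that yeast takes up through the ARN transporters, helped by FIT mannoproteins that hold them in the cell wall. The transporter gene ARN1 read 2589, 3959 and 2800.2 at 25 mM, against 1151 and 1268 at 15 mM (1.34 ± 0.23, adjusted p = 0.0114), and ENB1, the transporter for enterobactin, read 472, 464 and 329 at 25 mM, against 158 and 211 at 15 mM (1.18 ± 0.22, adjusted p = 0.0217). For both genes the 25 mM arrays lay above both 15 mM arrays. FIT3, a FIT mannoprotein gene, read 11323, 12393 and 9879.7 at 25 mM, against 5778 and 6668 at 15 mM (0.85 ± 0.12, adjusted p = 0.00509), again with no overlap. SIT1 (1.26, adjusted p = 0.0685), FIT2 (0.70, 0.0803) and ARN2 (0.71, 0.0838) did not pass, although their 25 mM arrays all lay above both 15 mM arrays, and the arrays of FIT1 overlapped (-0.18, 0.834). The median of the 7 genes was 0.85, against -0.01 over all genes. Without centring, 6 of the 7 were called higher, where 2.2% of all genes were, and the medians were 0.98 and 0.13. Removal of 1 array ended the calls of ARN1 (15 mM arrays 1 and 2, adjusted p = 0.0874 to 0.153, or 0.0525 from the 5 arrays alone), ENB1 (25 mM arrays 1 and 2 and 15 mM arrays 1 and 2, adjusted p = 0.0588 to 0.29, or 0.0857 from the 5 arrays alone) and FIT3 (15 mM array 1, adjusted p = 0.101, or 0.062 from the 5 arrays alone).

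In the reductive branch of iron uptake and its regulators, 1 of 29 genes was called, where 1.6% of all genes were. FRE5, a putative ferric reductase, read 307, 604 and 205 at 25 mM, against 37.5 and 71.4 at 15 mM (2.68 ± 0.41, adjusted p = 0.00684). Array 1 at 15 mM was below its own background of 40.5, so the size of this change is uncertain. Its 3 arrays at 25 mM were widely spread and all lay above both 15 mM arrays. FRE2 (0.42, adjusted p = 0.0812) and TIS11, which degrades mRNAs of iron-using proteins when iron is short (1.19, 0.0983), missed the threshold. The high-affinity oxidase FET3 (0.38, 0.584) and its partner FTR1 (-0.26, 0.557) did not pass, nor did FET4, a low-affinity iron and zinc transporter (-0.49, 0.76). FRE7, another ferric reductase homologue, outside that list, fell, and read 78.6, 46.6 and 130.5 at 25 mM, against 282 and 251 at 15 mM (-1.75 ± 0.34, adjusted p = 0.0273). On chromosome XV, FRE7 and GRE2 are neighbours that changed in opposite directions, and FIT3 and FRE5 are neighbours that both rose. Single arrays decided the calls of FRE5 (15 mM array 1, adjusted p = 0.127, or 0.0925 from the 5 arrays alone) and FRE7 (25 mM array 1 and 15 mM arrays 1 and 2, adjusted p = 0.0799 to 0.248, or 0.18 from the 5 arrays alone). None of the 15 copper and zinc genes was called.

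**Figure D2:**
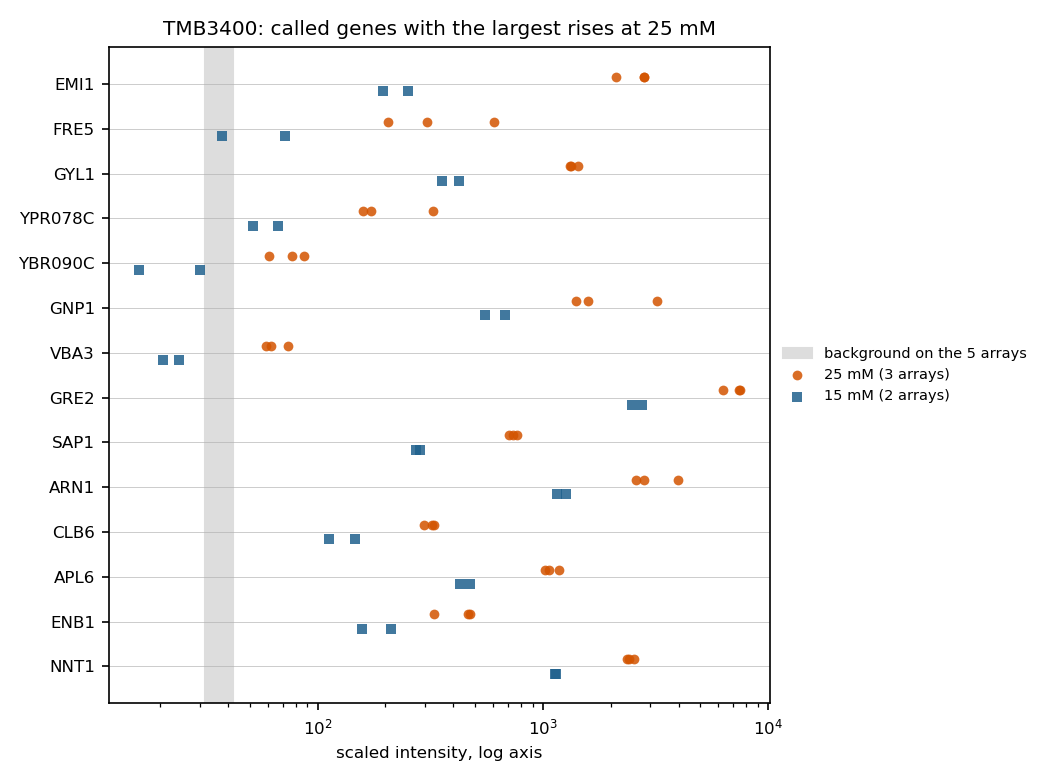
Scaled intensity on a log axis of the called genes with the highest changes and at least 1 group above background, with circles for the 3 arrays at 25 mM and squares for the 2 arrays at 15 mM. The grey band is the background range, 31.8 to 42.1, and the 25 mM points lie right of the 15 mM points in every gene shown.

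Of 26 measured genes of glucose transport and sensing, HXT3 and STD1 fell, where 0.807% of all genes did. HXT3 encodes a low-affinity glucose transporter of the plasma membrane. It read 1211, 1121 and 1039 at 25 mM, against 5655 and 5723 at 15 mM, and the 3 arrays at 25 mM stood far below both 15 mM arrays (-2.34 ± 0.10, adjusted p = 2.43e-07). Expressed as a ratio, HXT3 was 5.07-fold lower at 25 mM. STD1, which takes part in glucose signalling to the HXT promoters, also fell and read 123, 68.4 and 92.6 at 25 mM, against 319.8 and 351 at 15 mM (-1.85 ± 0.21, adjusted p = 0.000773). Its groups did not overlap, and neither gene's call was lost in any of the 26 settings. The other 24 genes of the list did not pass. MTH1, the paralogue of STD1, had -0.28 (adjusted p = 0.605), the sensor SNF3 0.50 (adjusted p = 0.101), and the high-affinity transporter HXT7 -0.20 (adjusted p = 0.436). The median of the 26 genes was -0.18, with 20 below 0, but without centring it was -0.04, with 15 below 0. HXT genes are similar in sequence and their probe sets may share signal. Of the 16 genes of glycolysis and fermentation, 0 were called. PGM1, a phosphoglucomutase that feeds glycogen and trehalose synthesis, fell by 0.99 in log2 units (adjusted p = 0.0118), the single called member of 18 trehalose and glycogen genes. Leaving out 1 array in turn ended the call of PGM1 (25 mM array 2 and 15 mM arrays 1 and 2, adjusted p = 0.0515 to 0.143).

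In the drug efflux list 1 of 25 genes rose, where 0.789% of all genes did. Called transporters outside that list moved in both directions. GNP1, a glutamine permease, read 3221, 1404 and 1584 at 25 mM, against 675 and 550.4 at 15 mM (1.66 ± 0.28, adjusted p = 0.0103). The 25 mM arrays were spread but all lay above both 15 mM arrays. AGP1, a broad amino acid permease, changed by 0.63 ± 0.12, adjusted p = 0.0296. VBA3, a vacuolar permease for basic amino acids, read 59.1, 73.8 and 62.1 at 25 mM, against 24.4 and 20.6 at 15 mM. Both 15 mM arrays were at background, so the change is at least 1.55-fold, and the fitted change had adjusted p = 0.0103. RSB1, a transporter-like protein for sphingoid bases and the single called gene of 25 in the drug efflux list, rose by 0.70 ± 0.14, adjusted p = 0.0377. VMR1, a vacuolar ABC transporter outside that list, rose by 0.72 ± 0.14, adjusted p = 0.0247. The multidrug exporter PDR5 had 0.01 (adjusted p = 0.994). FLR1 (0.55, 0.226) and PDR10 (0.61, 0.534) missed the threshold. Calls ended when 1 array was left out for GNP1 (15 mM arrays 1 and 2, adjusted p = 0.0773 to 0.146, or 0.157 from the 5 arrays alone) and AGP1 (25 mM arrays 1, 2 and 3, 15 mM arrays 1 and 2, FT30-3 36 mM array 3 and FT30-3 15 mM array 3, adjusted p = 0.05002 to 0.258). For VBA3 (15 mM arrays 1 and 2, adjusted p = 0.081 to 0.144) and RSB1 (25 mM arrays 1 and 2, 15 mM arrays 1 and 2, FT30-3 36 mM array 2 and FT30-3 15 mM arrays 1, 2 and 3, adjusted p = 0.0522 to 0.397, or 0.0981 from the 5 arrays alone) the call ended too. For VMR1 (25 mM arrays 1 and 2 and 15 mM arrays 1 and 2, adjusted p = 0.081 to 0.223, or 0.0891 from the 5 arrays alone) the call ended too. THI7, a thiamine transporter, fell by 0.91 in log2 units (adjusted p = 0.00693), and NHA1, a sodium and proton antiporter, by 0.88 (adjusted p = 0.0128). Without one of the arrays, the calls of THI7 (15 mM array 1, adjusted p = 0.132, or 0.104 from the 5 arrays alone) and NHA1 (25 mM array 2 and 15 mM arrays 1 and 2, adjusted p = 0.0591 to 0.152) were lost.

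In the meiosis list, 1 of 19 measured genes rose and 1 fell, where 0.789% of all genes rose and 0.807% fell. EMI1, named for its part in early meiotic induction, had the highest change. It read 2107, 2816 and 2796 at 25 mM, against 195 and 252 at 15 mM, with all 25 mM arrays far above both 15 mM arrays (3.52 ± 0.27, adjusted p = 3.11e-05). SPO13, which directs the first meiotic division, read 29.3, 28.2 and 25.1 at 25 mM, against 199.5 and 143 at 15 mM. The 25 mM arrays were at background, so SPO13 was at least 4.69-fold lower, and its fitted change had adjusted p = 3.11e-05. The other 17 genes of the list were not called, and IME1, the inducer of the programme, had -0.01 (adjusted p = 0.994). REC8, which encodes the meiotic form of the cohesin ring subunit, is outside that list and read 107, 106 and 118 at 25 mM, against 321 and 346 at 15 mM (-1.59 ± 0.10, adjusted p = 1e-05), the 25 mM arrays lying below both 15 mM arrays. REC114, needed for meiotic DNA breaks, rose by 0.74 ± 0.14, adjusted p = 0.0178. EMI1, SPO13 and REC8 kept their calls in all 26 settings, and single arrays decided the call of REC114 (25 mM arrays 2 and 3 and 15 mM arrays 1 and 2, adjusted p = 0.0652 to 0.176).

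In the cell cycle list 1 of 24 genes was called, where 1.6% of all genes were, and the other genes in this paragraph lie outside that list. CLB6, a cyclin of S phase, was that gene and read 297, 329 and 323 at 25 mM, against 113 and 146 at 15 mM (1.29 ± 0.25, adjusted p = 0.025). Its groups did not overlap. MCD1, the mitotic cohesin subunit related to REC8, rose by 0.92 ± 0.20, adjusted p = 0.041, SMC4, of condensin, by 0.81 ± 0.15, adjusted p = 0.0189, and ELG1, which unloads the PCNA clamp from DNA, by 0.97 ± 0.13, adjusted p = 0.0027. NET1, a nucleolar anchor of the phosphatase Cdc14, rose by 1.01 ± 0.13, adjusted p = 0.002, and EST1, a telomerase subunit, by 0.72 ± 0.10, adjusted p = 0.0027. SCM3, which loads the centromeric histone, rose by 0.57 (adjusted p = 0.0431). NET1 and EST1 kept their calls in all 26 settings. Without 1 array the test no longer passed in the case of CLB6 (25 mM arrays 1, 2 and 3 and 15 mM arrays 1 and 2, adjusted p = 0.0588 to 0.298) and MCD1 (25 mM arrays 2 and 3, 15 mM arrays 1 and 2, FT30-3 36 mM arrays 2 and 3 and FT30-3 15 mM array 2, adjusted p = 0.0608 to 0.331, or 0.0891 from the 5 arrays alone). For SMC4 (25 mM arrays 1 and 2 and 15 mM arrays 1 and 2, adjusted p = 0.0663 to 0.189) and ELG1 (15 mM array 2, adjusted p = 0.0557, or 0.062 from the 5 arrays alone) the call ended too. For SCM3 (25 mM arrays 1, 2 and 3, 15 mM arrays 1 and 2, FT30-3 36 mM arrays 2 and 3 and FT30-3 15 mM arrays 1, 2 and 3, adjusted p = 0.0524 to 0.432, or 0.0749 from the 5 arrays alone) the call ended too. DSE3, a gene of daughter cells, fell by 0.74 in log2 units (adjusted p = 0.00583), and 1 array decided the call of DSE3 (15 mM array 1, adjusted p = 0.101).

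Of the other genes that rose, GYL1, of a family that activates Rab GTPases in secretion, read 1317, 1332 and 1428 at 25 mM, against 355 and 425 at 15 mM (1.80 ± 0.12, adjusted p = 1e-05). Both APL6 and APM3, subunits of the AP-3 coat that carries cargo to the vacuole, rose. APL6 read 1022, 1066 and 1181 at 25 mM, against 428 and 477 at 15 mM (1.27 ± 0.10, adjusted p = 3.11e-05), and APM3 changed less, by 0.46 ± 0.10, adjusted p = 0.0393. NNT1, a methyltransferase, read 2369, 2548 and 2398 at 25 mM, against 1134 and 1145 at 15 mM (1.10 ± 0.09, adjusted p = 3.6e-05), with the 3 arrays at 25 mM close together. SAP1, an ATPase of the AAA family, read 709, 766 and 736 at 25 mM, against 272 and 285 at 15 mM (1.40 ± 0.10, adjusted p = 1.84e-05). In each of these genes the doses did not overlap. ECL1, whose overexpression lengthens chronological life span, rose by 1.08 (adjusted p = 0.00032), AHC1, of a histone acetyltransferase complex, by 1.03 (0.000504), and ECM18 by 0.90 (0.00112). The actin-binding TWF1 (0.96, adjusted p = 0.00684), the autophagy gene ATG27 (0.69, 0.0071), the peroxisomal PEX15 (0.78, 0.00693), the prenyl synthase gene BTS1 (0.74, 0.0101) and the phosphatase subunit SPO7 (0.51, 0.00928) also rose. So did the cell wall gene PIR5 (0.51, 0.0214) and YHI9 (0.41, 0.0377). Removal of 1 array ended the calls of APM3 (25 mM arrays 2 and 3, 15 mM arrays 1 and 2, FT30-3 36 mM arrays 2 and 3 and FT30-3 15 mM arrays 1, 2 and 3, adjusted p = 0.0547 to 0.291, or 0.151 from the 5 arrays alone) and TWF1 (15 mM arrays 1 and 2, adjusted p = 0.0588 to 0.101). For ATG27 (15 mM arrays 1 and 2, adjusted p = 0.0633 to 0.122) and PEX15 (15 mM arrays 1 and 2, adjusted p = 0.0773 to 0.0959) the call ended too. For BTS1 (15 mM arrays 1 and 2, adjusted p = 0.0585 to 0.166, or 0.0525 from the 5 arrays alone) and SPO7 (15 mM arrays 1 and 2, adjusted p = 0.0749 to 0.153, or 0.0799 from the 5 arrays alone) the call ended too. For PIR5 (25 mM arrays 2 and 3 and 15 mM arrays 1 and 2, adjusted p = 0.0746 to 0.246, or 0.0749 from the 5 arrays alone) and YHI9 (25 mM arrays 1, 2 and 3, 15 mM arrays 1 and 2, FT30-3 36 mM arrays 2 and 3 and FT30-3 15 mM arrays 1, 2 and 3, adjusted p = 0.0549 to 0.287, or 0.173 from the 5 arrays alone) the call ended too.

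Among genes without a standard name, YPR078C read 159, 173 and 325 at 25 mM, against 66.9 and 51.7 at 15 mM (1.80 ± 0.38, adjusted p = 0.0425), with no overlap between doses. YBR090C read 61.1, 87 and 77.2 at 25 mM, against 16.2 and 30.1 at 15 mM. Both 15 mM arrays were at background, so that YBR090C was at least 1.78-fold higher (adjusted p = 0.0216 for the fitted change). YOR192C-C (1.03, adjusted p = 0.0071), YKL070W (0.82, 0.0469) and YLR342W-A (0.71, 0.0398) rose as well. These calls were lost without 1 array for YPR078C (25 mM arrays 1, 2 and 3, 15 mM arrays 1 and 2, FT30-3 36 mM array 2, FT30-3 25 mM arrays 1 and 2 and FT30-3 15 mM arrays 1, 2 and 3, adjusted p = 0.052 to 0.341, or 0.0891 from the 5 arrays alone) and YBR090C (25 mM arrays 2 and 3 and 15 mM array 1, adjusted p = 0.0665 to 0.292, or 0.0749 from the 5 arrays alone). For YOR192C-C (15 mM array 1, adjusted p = 0.152) and YKL070W (25 mM arrays 1 and 3, 15 mM arrays 1 and 2, FT30-3 36 mM arrays 2 and 3, FT30-3 25 mM arrays 1 and 2 and FT30-3 15 mM arrays 1, 2 and 3, adjusted p = 0.0503 to 0.41, or 0.19 from the 5 arrays alone) the call ended too. For YLR342W-A (25 mM arrays 1 and 2, 15 mM arrays 1 and 2, FT30-3 36 mM array 2 and FT30-3 15 mM arrays 1, 2 and 3, adjusted p = 0.0587 to 0.315, or 0.0909 from the 5 arrays alone) the call ended too.

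**Figure D3:**
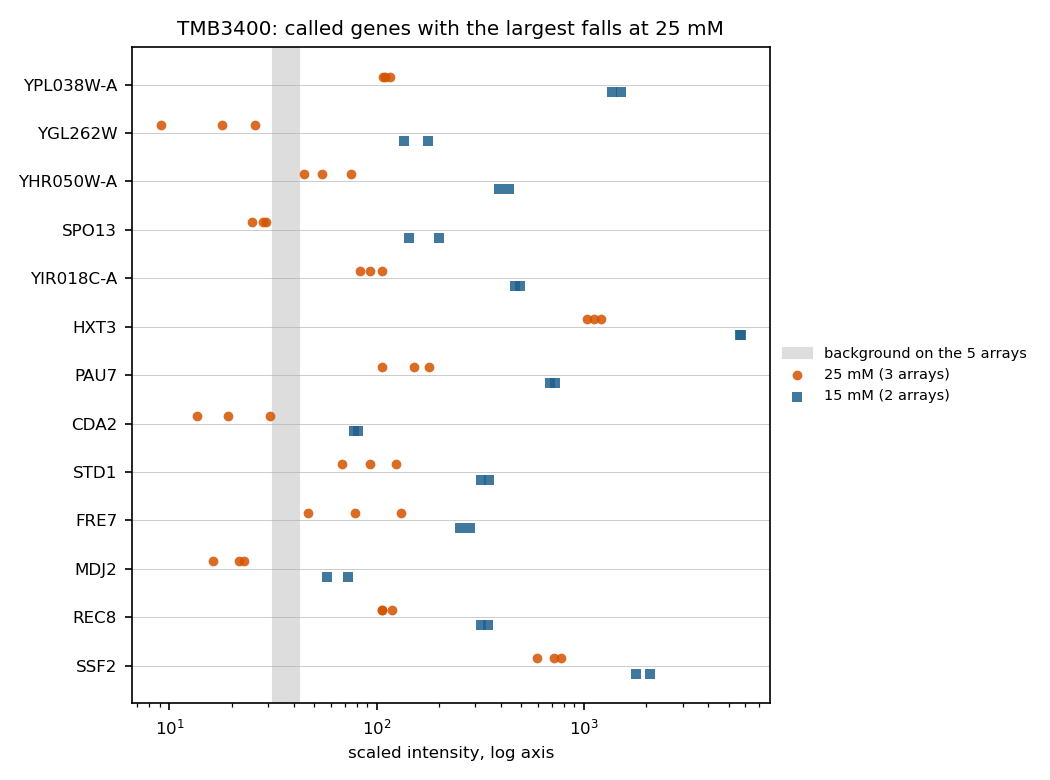
Scaled intensity on a log axis of the called genes with the lowest changes and at least 1 group above background, with circles for the 3 arrays at 25 mM and squares for the 2 arrays at 15 mM. The 25 mM points lie left of the 15 mM points in every gene shown, and those of SPO13, YGL262W, CDA2 and MDJ2 lie within or below the grey background band.

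Genes without a standard name were also among the lowest changes. YPL038W-A read 117, 109.8 and 107 at 25 mM, against 1364 and 1519.6 at 15 mM (-3.68 ± 0.09, adjusted p = 8e-10), and its neighbour on chromosome XVI, YPL039W, fell by 0.59 in log2 units (adjusted p = 0.00693). YHR050W-A read 44.7, 75.1 and 54.6 at 25 mM, against 389 and 435 at 15 mM (-2.84 ± 0.29, adjusted p = 0.000269). YIR018C-A read 106, 93.3 and 82.8 at 25 mM, against 491 and 467 at 15 mM (-2.35 ± 0.11, adjusted p = 4.58e-07). In these genes the 25 mM arrays all lay below both 15 mM arrays. YGL262W read 17.9, 9.08 and 26 at 25 mM, against 177 and 136 at 15 mM. Its 25 mM arrays were at background, so it was at least 4.31-fold lower (adjusted p = 0.00127 for the fitted change). A single array decided the call of YPL039W (15 mM array 1, adjusted p = 0.153, or 0.0891 from the 5 arrays alone), and the other 4 kept theirs in all 26 settings.

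PAU7, of the seripauperin family of cell wall mannoproteins, read 152, 106 and 178 at 25 mM, against 729 and 686 at 15 mM (-2.31 ± 0.24, adjusted p = 0.000376). The family's members are close copies that probe sets may not tell apart, so the value is uncertain, and the other 12 of 13 measured PAU genes were not called. CDA2, a chitin deacetylase of spores, read 13.6, 30.5 and 19.1 at 25 mM, against 77.4 and 81.2 at 15 mM. That is at least 2.22-fold lower (adjusted p = 0.00661 for the fitted change). MDJ2, a co-chaperone of the mitochondrial inner membrane, read 22.9, 21.7 and 16.2 at 25 mM, against 72.7 and 57.5 at 15 mM. It was at least 1.81-fold lower (adjusted p = 0.000242 for the fitted change). For both genes the 25 mM arrays were at background. Single arrays decided the call of CDA2 (15 mM arrays 1 and 2, adjusted p = 0.0696 to 0.0755, or 0.0702 from the 5 arrays alone).

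In the ribosome biogenesis list 0 of 53 genes were called, where 1.6% of all genes were. Some genes with related roles outside that list fell. SSF2, an assembly factor of the large ribosomal subunit, read 715, 596 and 775 at 25 mM, against 1783 and 2084 at 15 mM (-1.48 ± 0.15, adjusted p = 0.000242), with no overlap between doses. Its near-identical copy SSF1 was not called (-0.34, adjusted p = 0.69), and the probe sets of the pair may share signal. MAK16, another large-subunit assembly factor, fell by 1.28 in log2 units (adjusted p = 0.0128). CLF1, a spliceosome factor, read 444, 442 and 446 at 25 mM, against 855 and 927 at 15 mM (adjusted p = 6.48e-05), the doses not overlapping. PRP19 (-0.74, adjusted p = 0.0178) encodes another spliceosome factor, and NCS6 (-0.84 ± 0.09, adjusted p = 0.000269) acts in tRNA thiolation. CTR9, of the Paf1 complex that follows RNA polymerase II, fell by 0.84 (adjusted p = 0.00719), SWC5, of the SWR1 histone exchange complex, by 0.56 (adjusted p = 0.0473), and MSN2, a transcription factor of the general stress response, by 0.55 (adjusted p = 0.041). Calls ended when 1 array was left out for MAK16 (25 mM array 2 and 15 mM arrays 1 and 2, adjusted p = 0.0515 to 0.218, or 0.0544 from the 5 arrays alone) and PRP19 (25 mM arrays 2 and 3 and 15 mM arrays 1 and 2, adjusted p = 0.0588 to 0.239). For CTR9 (15 mM array 2, adjusted p = 0.138) and SWC5 (25 mM arrays 1, 2 and 3, 15 mM arrays 1 and 2, FT30-3 36 mM arrays 2 and 3, FT30-3 25 mM arrays 1 and 2 and FT30-3 15 mM arrays 2 and 3, adjusted p = 0.0504 to 0.411, or 0.096 from the 5 arrays alone) the call ended too. For MSN2 (25 mM arrays 1, 2 and 3, 15 mM arrays 1 and 2, FT30-3 36 mM array 3 and FT30-3 15 mM arrays 1, 2 and 3, adjusted p = 0.0583 to 0.308, or 0.0779 from the 5 arrays alone) the call ended too.

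Other genes that fell have varied roles. ENT4, an endosomal adaptor and the neighbour of PRP19 on chromosome XII, fell by 1.41 in log2 units (adjusted p = 0.00079), and PEX13, of the peroxisomal import machinery, by 0.87 (adjusted p = 0.000842). Both kept their calls in all 26 settings. FMP30, a mitochondrial phospholipase (-1.15, adjusted p = 0.00334), PGS1, of cardiolipin synthesis (-0.80, 0.0263), and MHR1, of mitochondrial DNA recombination (-0.54, 0.0429), fell. DAL1, the allantoinase (-1.05, 0.0285), and BIO4, of biotin synthesis (-0.62, 0.0214), fell too. So did SMP3, of GPI anchor synthesis (-0.81, 0.0071), the kinase PKH2 (-0.76, 0.0114), LAS17, an activator of actin assembly (-0.89, 0.0101), and MTC6 (-0.65, 0.0256). Leaving out 1 array in turn ended the calls of FMP30 (15 mM array 1, adjusted p = 0.0528) and PGS1 (25 mM arrays 2 and 3 and 15 mM arrays 1 and 2, adjusted p = 0.0746 to 0.247). For MHR1 (25 mM arrays 1, 2 and 3, 15 mM arrays 1 and 2, FT30-3 36 mM arrays 2 and 3 and FT30-3 15 mM arrays 2 and 3, adjusted p = 0.0518 to 0.291, or 0.122 from the 5 arrays alone) and DAL1 (25 mM arrays 1 and 2, 15 mM arrays 1 and 2 and FT30-3 15 mM array 2, adjusted p = 0.0501 to 0.291, or 0.0749 from the 5 arrays alone) the call ended too. For BIO4 (25 mM arrays 1 and 2 and 15 mM arrays 1 and 2, adjusted p = 0.0742 to 0.217, or 0.0891 from the 5 arrays alone) and SMP3 (15 mM array 1, adjusted p = 0.152, or 0.0749 from the 5 arrays alone) the call ended too. For PKH2 (15 mM arrays 1 and 2, adjusted p = 0.0834 to 0.165) and LAS17 (15 mM arrays 1 and 2, adjusted p = 0.0663 to 0.152) the call ended too. For MTC6 (25 mM arrays 2 and 3 and 15 mM arrays 1 and 2, adjusted p = 0.0585 to 0.347, or 0.0891 from the 5 arrays alone) the call ended too.

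A last set comprises HUR1 (-1.12, adjusted p = 0.00684), YGL188C-A (-0.83, 0.0238), YJL077W-B (-0.70, 0.0126) and the retrotransposon genes YBL100W-A (-0.90, 0.0285) and YDR316W-B (-0.79, 0.0466), all of which fell. The retrotransposon genes have many near-identical copies, so their values are uncertain. Without one array, calls were lost for HUR1 (15 mM array 1, adjusted p = 0.126, or 0.062 from the 5 arrays alone) and YGL188C-A (25 mM arrays 2 and 3 and 15 mM arrays 1 and 2, adjusted p = 0.0746 to 0.219). For YJL077W-B (25 mM array 2 and 15 mM arrays 1 and 2, adjusted p = 0.0565 to 0.218, or 0.0749 from the 5 arrays alone) and YBL100W-A (25 mM arrays 1 and 2, 15 mM arrays 1 and 2 and FT30-3 15 mM array 2, adjusted p = 0.0529 to 0.321, or 0.0749 from the 5 arrays alone) the call ended too. For YDR316W-B (25 mM arrays 1 and 2, 15 mM arrays 1 and 2, FT30-3 36 mM arrays 2 and 3 and FT30-3 15 mM arrays 1, 2 and 3, adjusted p = 0.0679 to 0.373, or 0.21 from the 5 arrays alone) the call ended too.

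Several large lists held few or no called genes, where 1.6% of all genes were called. RPT6, an ATPase of the proteasome base, rose by 0.59 (adjusted p = 0.0392) and was the 1 called gene of 33 proteasome genes, and leaving out 1 array ended the call of RPT6 (25 mM arrays 1, 2 and 3, 15 mM arrays 1 and 2 and FT30-3 15 mM arrays 1, 2 and 3, adjusted p = 0.0671 to 0.291). The median of the 33 was 0.14, with 30 above 0, and 0.28 without centring. None of 128 cytosolic ribosomal protein genes was called, with a median of -0.10 and 122 below 0, but the median was 0.04 without centring. None of 55 mitochondrial ribosomal protein genes (median -0.15, and -0.02 without centring), 53 ribosome biogenesis genes (-0.10, but 0.04 without centring), 24 ergosterol pathway genes (-0.23, and -0.09 without centring), 20 hypoxic genes (-0.22, and -0.08), 35 oxidative stress genes (0.01, and 0.15), 28 heat shock genes (0.08, and 0.22), 57 amino acid biosynthesis genes (0.09, and 0.23) or 35 respiratory chain genes (-0.04, but 0.10 without centring) was called. The oxidative stress regulator YAP1 had -0.36 (adjusted p = 0.476), and the flocculin FLO11 -1.42 (adjusted p = 0.436), among 29 cell wall genes of which 0 were called. In the nitrogen list AGP1 rose and DAL1 fell among 32 genes, and in the vitamin list THI7 and BIO4 fell among 21. The lists for glycerol and osmotic genes, gluconeogenesis, the TCA cycle, the unfolded protein response, sulfate and methionine, phosphate starvation, purine and formate metabolism, beta-oxidation, DNA damage and mating held 0 called genes each.

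**Figure D4:**
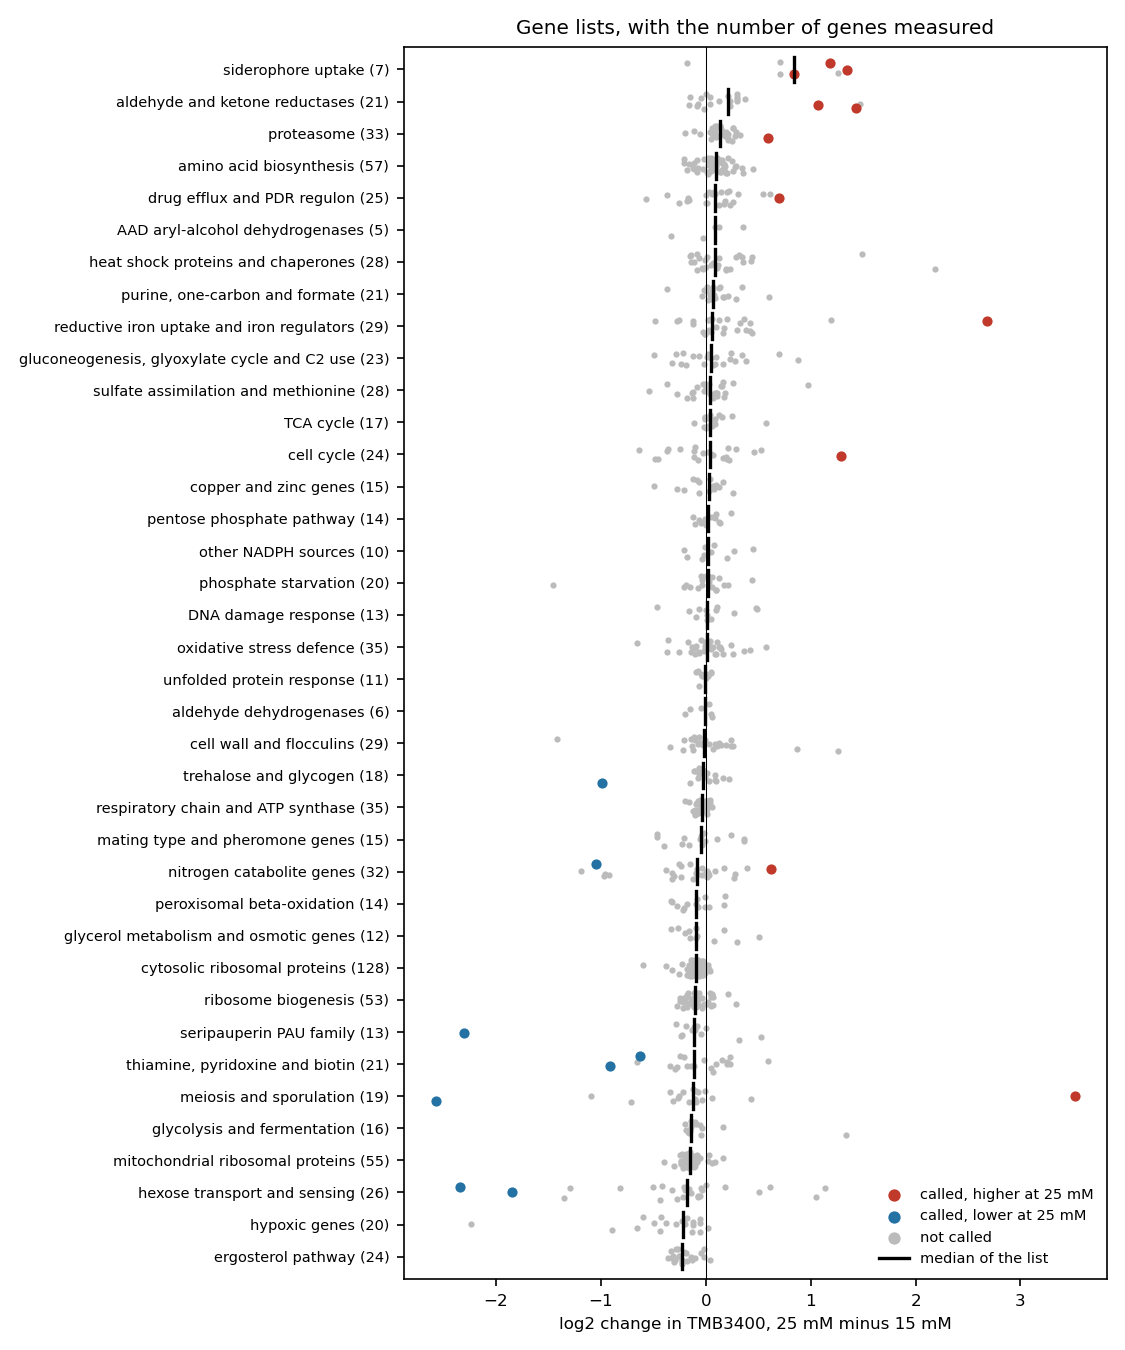
Log2 change, 25 mM minus 15 mM, of each measured gene of selected lists in TMB3400, with 1 row per list and called genes in colour. Siderophore genes lie mostly right of 0 (median 0.85, 3 of 7 called), and hexose transport genes mostly left of it (median -0.18, or -0.04 without centring). The ergosterol (-0.23, or -0.09 without centring) and hypoxic genes (-0.22, or -0.08) have lower medians, with 0 called. Ribosomal protein genes also lie mostly left of 0. Called genes are a small part of every row except that of the siderophore genes.

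The same step of feed furfural was set beside that of FT30-3, the adapted strain, to see where TMB3400 differed. In FT30-3, 117 genes were called between 25 and 15 mM (2.15%), 67 higher (1.23%) and 50 lower (0.918%). Of the 43 genes that were higher in TMB3400, 27 were also called higher in FT30-3, which is 62.79% of the TMB3400 list and 40.3% of the FT30-3 list. Of the 44 lower genes, 9 were called lower in FT30-3, which is 20.45% of the TMB3400 list and 18% of the FT30-3 list. The genes higher in TMB3400 had a median change of 0.96 there and 0.77 in FT30-3, and the lower genes had -0.99 in TMB3400 and -0.17 in FT30-3. The genes were chosen by their calls in TMB3400, so these medians are a description and no test of a difference between strains. EMI1 (3.21), GYL1 (1.66), GRE2 (1.24), ARN1 (1.42), APL6 (1.21) and NNT1 (1.01) rose in FT30-3 as well, as did OYE3 (0.56), and YGL262W (-2.93), PAU7 (-2.21) and FRE7 (-2.14) fell there too.

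The difference between the strains' dose steps was itself tested. It was called for 37 of 5449 genes (0.679%), 14 higher (0.257%) and 23 lower (0.422%) in TMB3400, with 194 at an unadjusted p under 0.05. Of the 87 genes called in TMB3400, 14 were among them, 1 higher and 13 lower in TMB3400. HXT3 read 4967 and 4444 at 25 mM, against 5550.1, 5789 and 5612 at 15 mM in FT30-3, a change of -0.27 ± 0.10, adjusted p = 0.318, and the difference between the steps was -2.08 ± 0.14, adjusted p = 1.83e-05. HXT3 thus fell in TMB3400 and not beyond the threshold in FT30-3. REC8 showed a like contrast, with 0.08 in FT30-3 and a difference of -1.67 ± 0.15, adjusted p = 0.000158, as did SPO13 (-0.69, difference -1.89 ± 0.28, adjusted p = 0.00913), SSF2 (-0.12, difference -1.36 ± 0.21, adjusted p = 0.0102) and MDJ2 (0.14, difference -1.78 ± 0.23, adjusted p = 0.00295). SAP1 read 205 and 232 at 25 mM, against 312, 294 and 272 at 15 mM in FT30-3 (-0.42 ± 0.10, adjusted p = 0.0606) and was the called gene whose step was higher in TMB3400, by 1.82 ± 0.14, adjusted p = 5.38e-05. YIR018C-A and HUR1, which fell in TMB3400, rose in FT30-3 (1.51 and 1.32). PEX13 (0.0215), NCS6 (0.0123), DSE3 (0.0429), YPL039W (0.026), YPL038W-A (5.24e-08) and YHR050W-A (0.0423) also differed, with the adjusted p of the difference in parentheses. In SPO13 and MDJ2 the TMB3400 arrays at 25 mM were at background, so the fitted difference is no bound. Leaving out 1 array ended the call of the difference for SSF2 (15 mM array 2 and FT30-3 25 mM array 1, adjusted p = 0.0644 to 0.0805) and SPO13 (15 mM array 1 and FT30-3 25 mM array 1, adjusted p = 0.0514 to 0.0554). For NCS6 (15 mM array 1 and FT30-3 25 mM array 2, adjusted p = 0.0653 to 0.101) and PEX13 (25 mM arrays 2 and 3, 15 mM arrays 1 and 2, FT30-3 25 mM array 1 and FT30-3 15 mM arrays 1, 2 and 3, adjusted p = 0.0529 to 0.14) the call ended too. For DSE3 (25 mM arrays 1, 2 and 3, 15 mM arrays 1 and 2, FT30-3 36 mM array 3, FT30-3 25 mM arrays 1 and 2 and FT30-3 15 mM arrays 1, 2 and 3, adjusted p = 0.0714 to 0.252) and YPL039W (25 mM arrays 2 and 3, 15 mM array 1, FT30-3 25 mM arrays 1 and 2 and FT30-3 15 mM arrays 1, 2 and 3, adjusted p = 0.0655 to 0.187) the call ended too. For YHR050W-A (25 mM arrays 1 and 3, 15 mM arrays 1 and 2, FT30-3 36 mM arrays 2 and 3, FT30-3 25 mM array 2 and FT30-3 15 mM arrays 1 and 2, adjusted p = 0.0587 to 0.213) the call ended too. STD1 had -0.43 in FT30-3, and the difference did not pass (adjusted p = 0.0811).

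**Figure D5:**
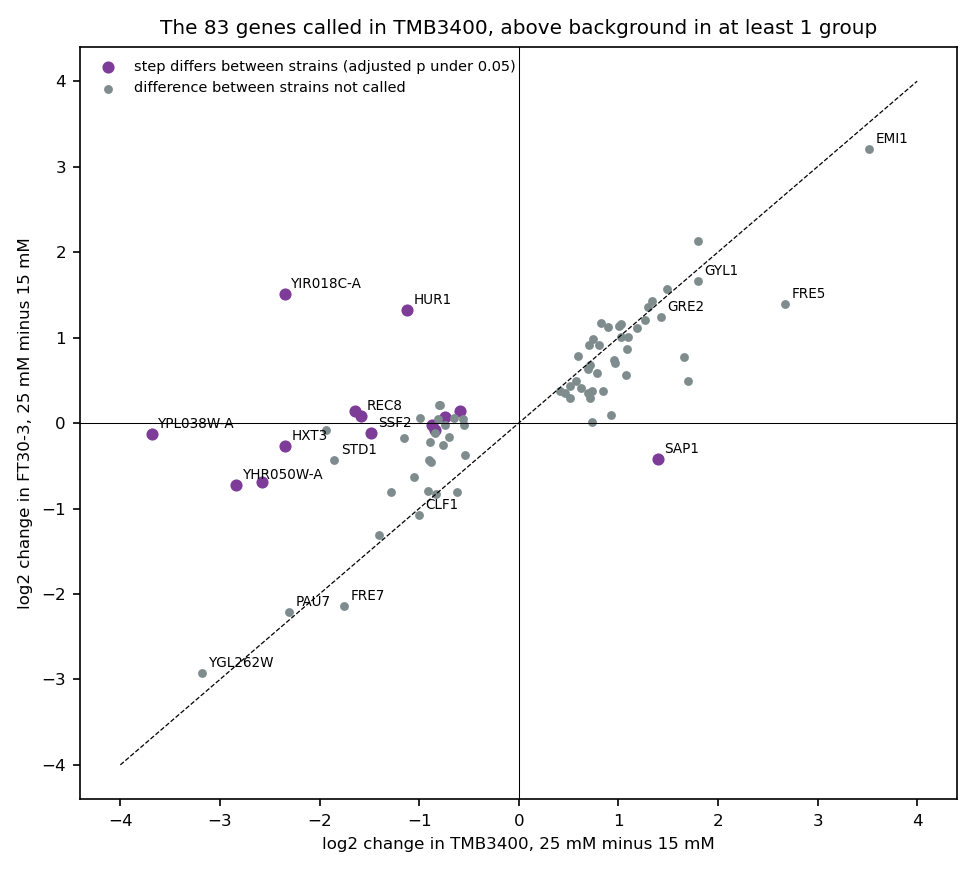
Each point is 1 of the 83 called genes with at least 1 TMB3400 group above background, with its log2 change in TMB3400 (25 mM minus 15 mM) on the horizontal axis and that in FT30-3 on the vertical axis. Large points mark the genes whose step differed between the strains, and the dashed line marks equal change, from which HXT3, REC8 and YPL038W-A stand well above and SAP1 below.

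The called genes lay on all chromosomes except VI, with 16 on chromosome XV (9 higher and 7 lower among 512 genes) and 11 on chromosome XII (4 higher and 7 lower among 465). The median change of the genes of each chromosome lay between -0.02 and 0.03.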

How the data were processed

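RNA levels were measured on 13 arrays of S. cerevisiae chemostat cultures, in 5 groups of strain and furfural level taken from the sample titles. The authors deposited linear-scale intensities, with 1 value for each probe set on each array. Per the submitters' processing notes, R 2.7.2 was used. The sources used here do not state how probes were summarised, corrected for background or normalized, so any earlier scaling or centring is unknown.

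Of 10928 probe sets in the table, 5498 carry 1 S. cerevisiae gene in the platform annotation. It names 1 S. pombe gene for 1746, several genes for 1 and none for 3683. The brightest probe set represented each of the 47 genes with several, which left 5449 genes. Gene symbols were updated through a RefSeq table of assembly R64, which also gave neighbours. Promoter sequences and coordinates were not used here.

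Each array was centred on its S. cerevisiae median, and log2(intensity + 1) was fitted by lmFit and eBayes of limma 3.58.1, run under R 4.3.3, with 1 mean per strain and dose over all 13 arrays, with Benjamini-Hochberg adjustment over genes. The pseudocount understates changes of dim genes. A gene at or below the 95th percentile of S. pombe probe sets on all arrays of 1 group was treated as a bound in that group, and a minimum fold was computed against the background. Adjusted p values belong to the fitted changes, and the folds against the background were not tested. The procedure was tested on simulated data. The comparison, the members and the 38 gene lists were chosen with earlier results of these data known. Any called gene could be named, array values were set for the 15 highest and 15 lowest changes, and each list described could name 5 members with the smallest p. A fixed set of reductase, NADPH, efflux and transport genes was always named. FIT1, FET3, FTR1, MTH1, HXT7, IME1 and SSF1 fall outside that rule and were chosen after their values were seen. Alternatives covered centring, normalization, filters, the pseudocount, probe sets, the variance model, array weights, the arrays fitted, a replicate block, a minimum fold and leaving out each array. Figures were drawn with matplotlib 3.10.9.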

Additional observations from a re-analysis of the deposited data

Results flagged for a closer look

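The dose step of TMB3400 was tested against that of FT30-3, and the difference passed for 37 genes (limma, adjusted over 5449 genes). Of these, 17 are given. They are the 14 that were also called in TMB3400, and others from the 10 with the smallest p. The gene ranked 6 by p, with a log2 difference of -3.47, is not among the 17. Values are log2 differences, the step in TMB3400 minus the step in FT30-3. The difference was negative for YPL038W-A (-3.56 ± 0.12, adjusted p = 5.24e-08), YIR018C-A (-3.86 ± 0.16, adjusted p = 1.34e-07), HXT3 (-2.08 ± 0.14, adjusted p = 1.83e-05), HUR1 (-2.44 ± 0.24, adjusted p = 0.000426), YHR050W-A (-2.11 ± 0.40, adjusted p = 0.0423), SPO13 (-1.89 ± 0.28, adjusted p = 0.00913), MDJ2 (-1.78 ± 0.23, adjusted p = 0.00295), REC8 (-1.67 ± 0.15, adjusted p = 0.000158), SSF2 (-1.36 ± 0.21, adjusted p = 0.0102), PEX13 (-0.85 ± 0.14, adjusted p = 0.0215), DSE3 (-0.81 ± 0.16, adjusted p = 0.0429), NCS6 (-0.77 ± 0.12, adjusted p = 0.0123) and YPL039W (-0.73 ± 0.13, adjusted p = 0.026). All 13 fell in TMB3400. Their choice as genes also called there did not by itself set the direction, but both tests use the same TMB3400 arrays. The difference was positive for SAP1 (1.82 ± 0.14, adjusted p = 5.38e-05), which rose in TMB3400.

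For SOV1 (1.74 ± 0.12, adjusted p = 1.83e-05), YHL048C-A (3.11 ± 0.28, adjusted p = 0.00018) and YLR162W (2.72 ± 0.31, adjusted p = 0.00123) the difference was also positive. These 3 genes were not called in TMB3400, where their log2 changes were 0.07, 0.26 and -0.54. They fell in FT30-3, by log2 changes of -1.67, -2.86 and -3.26.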

How the results depend on the processing

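Of the 87 called genes, the 83 that were not at background in both groups were followed through 26 alternatives. None of the 83 changed direction, and 27 (12 higher and 15 lower) kept their call in all of them. Several alternatives, such as leaving out an FT30-3 array or fitting only the TMB3400 arrays, do not move the log2 change in TMB3400. In those the direction could not change, only the call. The count of 87 called genes in TMB3400 was 156 without centring (120 higher and 36 lower, against 43 and 44), 56 with only the 5 TMB3400 arrays, 209 with array weights, 40 with a minimum fold of 1.2, and 31 to 129 when 1 array was left out. Without 15 mM array 1 it was 31 and without 15 mM array 2 it was 39; the remaining array of that arm was then assumed to vary like the others. The FT30-3 count of 117 was 204 without centring, 64 with a minimum fold of 1.2 and 73 to 174 with 1 array left out. The count of 37 for the difference between strains was 57 with array weights, 23 with a replicate block, 21 with a minimum fold of 1.2 and 21 to 49 with 1 array left out. The count of 82 among 1746 S. pombe probe sets was 10 among the 43 that a filter on dim genes left. The called share was therefore larger among the brighter of these probe sets. The count was 50 with only the 5 TMB3400 arrays and 35 to 83 with 1 array left out. With the replicate number as a block, TMB3400 had 79 called genes (32 higher and 47 lower, 70 of them among the 87), FT30-3 99 and S. pombe 55. The block ended 16 of the 83 calls (adjusted p = 0.0503 to 0.0906), those of AGP1, APM3, CLB6, DAL1, MCD1, MSN2, MTC6, PIR5, RSB1, SCM3, VMR1, YHI9, YKL070W, YLR342W-A, YML131W and YPR078C. The block also ended the call of the difference between strains for NCS6 (adjusted p = 0.0539), PEX13 (adjusted p = 0.062), YPL039W (adjusted p = 0.089) and DSE3 (adjusted p = 0.135). Deviations of same-numbered arrays correlated between -0.40 and 0.59 over 23 pairs, 13 of them over 0.1. Those 13 were all the pairs without an FT30-3 15 mM array (0.187 to 0.587). Pairs with such an array lay between -0.40 and 0.0633. Deviations were taken from group means, so in the groups with n = 2 they mirror each other and the pairs are not independent. TMB3400 at 15 mM with FT30-3 at 25 mM thus gave 0.187 for both replicate numbers. The 2 pairs within TMB3400 correlated at 0.571 and 0.363. The main fit did not include the replicate number. The labels do not say that the numbers pair the arrays, and whether they do was not tested. Of the 83 calls, the fit of the 5 TMB3400 arrays ended 36 and a minimum fold of 1.2 ended 45. Array weights ended those of FRE7 and YDR316W-B, and a pseudocount of 16 those of SCM3, YLR342W-A and YPR078C. Centring on the mean ended 5 (MHR1, MSN2, SCM3, SWC5, YDR316W-B), no centring 8 (these except SCM3, and BIO4, DAL1, MTC6 and PGS1), the 4 groups at 15 and 25 mM 6 (APM3, MCD1, SWC5, YDR316W-B, YKL070W, YML131W), quantile normalization 7 (CLB6, MCD1, MHR1, PIR5, SCM3, YHI9, YKL070W) and an intensity trend 7 (APM3, PIR5, REC114, SCM3, SWC5, YHI9, YLR342W-A). Means over a gene's probe sets were not run for S. pombe. The causes of these shifts were not tested. The few arrays, and signals near background, limit what could be called among dim genes.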
